A study of Homo sapiens with 6 samples.

Results

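Kinesins are motor proteins that walk along microtubules or take them apart, using a conserved motor domain that binds and hydrolyses ATP. The genes described here are the kinesin heavy chains, chosen by symbol: KIF or KIFC followed by a number, with antisense and pseudogene names left out. This found 41 genes among the 26524 of the deposited count table, of which 34 passed the filter on low counts and were tested. Another 7 names that start with KIF belong to adaptors, antisense RNAs or a divergent transcript and were not counted as members.

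RNA-seq was done on SCC25, a cell line established from a tongue squamous carcinoma, in 6 libraries that the labels all place in batch 1. The 3 control libraries have the genotype and treatment label Control and the title NC, and the 3 shLIS1 libraries have the genotype Knockdown and the treatment Knockdown_LIS1, made with a short hairpin. Neither the hairpin sequence, nor whether the 3 hairpin samples carried the same hairpin, nor whether the controls carried a hairpin, nor whether clones or pools were used is given in the labels. They also do not say that replicates were separate cultures, so p-values measure the spread between these libraries, which may be technical.

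LIS1, the product of PAFAH1B1, binds cytoplasmic dynein, the motor that walks to the minus ends of microtubules, and is best known from neuronal migration and from mitosis. Most kinesins walk the other way, to the plus ends. Some carry vesicles, organelles or dynein itself outward, others slide spindle microtubules, move chromosomes or complete cytokinesis, and a few shorten microtubules instead of walking. In dividing epithelial cells the mitotic kinesins are made mainly in G2 and mitosis, while kinesin-1 and kinesin-2 are present throughout the cycle. The comparison of shLIS1 with control addresses which transcripts differ when LIS1 is lowered.

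Total counts were between 15661916 and 22790599 per library, so a count of 0 allows a level of up to 0.13 to 0.192 counts-per-million (CPM), a limit that covers counting error only. PAFAH1B1 itself was at 154 to 165 CPM in the controls and 109 to 113 CPM in shLIS1, so 69.8% remained (log2 fold change -0.52, SE 0.05, edgeR adjusted p = 6.5e-08), and the offset fit described below gave -0.81. All 10 keratinocyte markers were measured, at a summed 14084 to 14389 CPM in control and 12955 to 13958 CPM in shLIS1. Markers of fibroblasts summed to 17.1 to 21.9 CPM against 13.3 to 15.9 CPM, those of endothelium to 12.8 to 17.1 against 7.15 to 8.54 CPM, those of leukocytes to 13.8 to 14.9 against 7.81 to 8.96 CPM, nearly all from CD14, and those of neurons to 8.0 to 9.62 against 8.96 to 10 CPM. Of 8 fibroblast markers 4 were tested and 3 of these were lower. COL1A1 was the highest, with means of 12.8 CPM in control and 8.98 CPM in shLIS1, while THY1 and PDGFRA had group means of at most 0.0164 CPM. The part of these markers in the kinesin values was not tested. In all genes the fold change followed transcript composition, with a median log2 fold change of 0.28 in the GC-poorest quintile and -0.28 in the GC-richest. Another fit therefore entered a smooth over transcript length and GC content as an offset in edgeR, and its values are given beside the results as the offset fit.

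Kinesin transcripts moved in both directions. Of the 34 tested genes, 15 were higher in shLIS1 and 7 were lower at an adjusted p below 0.05, which is 44.1% and 20.6%, and 12 did not pass. Over all 14964 tested genes, 23.5% were higher and 24.9% lower, so 48.4% were called against 64.7% of the kinesins. The kinesin median log2 fold change was 0.18, beside -0.01 for all genes, and the range ran from -0.48 for KIF22 to 1.35 for KIF20B. The offset fit called 10 kinesins higher (29.4%) and 6 lower (17.6%), where it called 17.7% and 24.0% of all genes (41.8% in either direction). The groups did not overlap in 15 kinesins that were higher in all 3 shLIS1 libraries and in 7 that were lower, beside 27.1% and 29.0% of all tested genes (56.1% in either direction). In these bulk samples, fewer cells making a transcript and less transcript per cell cannot be told apart.

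**Figure D1:**
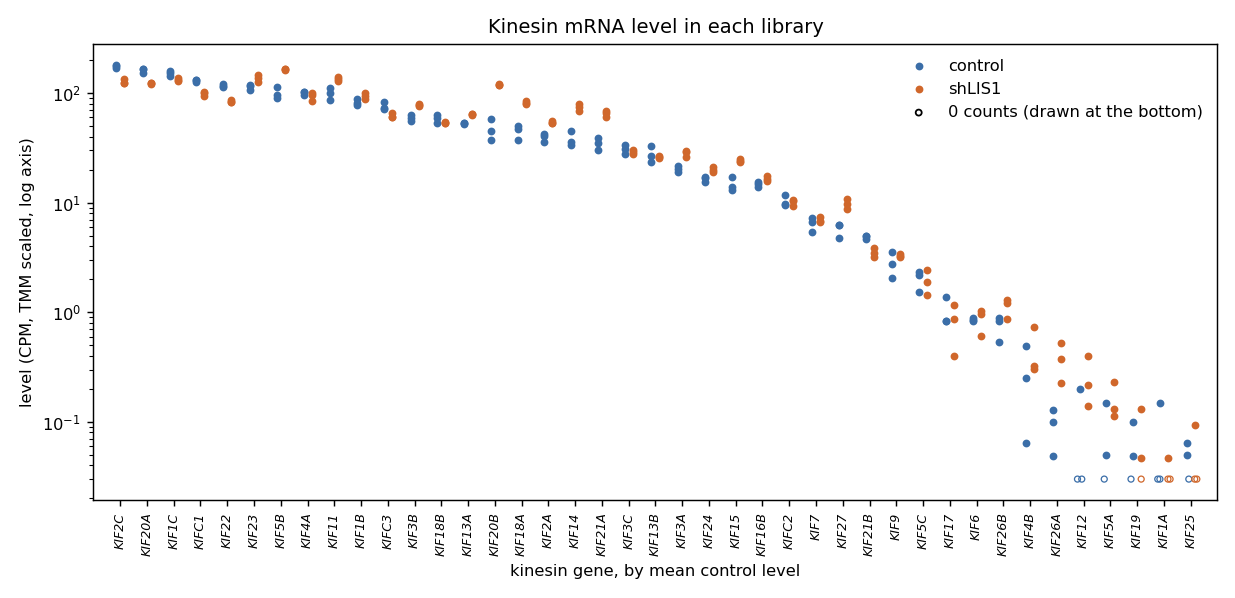
Level of each of the 41 kinesin genes in CPM (log axis) in 3 control and 3 shLIS1 libraries, 1 point per library, with libraries at 0 counts drawn as open points at the bottom. KIF2C and KIF20A are the highest in the controls and lie lower in shLIS1, KIF20B rises from 37.3 to 57.6 CPM in control to about 119 to 122 CPM, and the 7 untested genes on the right stay below 1 CPM.

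Among the 14 genes assigned to mitosis and cytokinesis 13 were tested. Of these 13, 7 were higher (53.8%), 4 lower (30.8%) and 2 not past the threshold, beside 23.5% and 24.9% of all genes. The rises were KIF20B, KIF14, KIF18A, KIF15, KIF2A, KIF11 and KIF23, and the falls KIF22, KIF2C, KIFC1 and KIF20A. In the offset fit 5 were higher and 5 lower (38.5% each), beside 17.7% and 24.0% of all genes. The summed level of the 14 genes was 1082 to 1179 CPM in control and 1169 to 1254 CPM in shLIS1, so the sums overlapped while the members parted.

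The kinesin-6 motors act at the central spindle and midbody, where the daughter cells separate. KIF20B (ENSG00000138182, chr10:89701590-89774939, plus strand) had the largest rise of the family. KIF20B measured 37.3, 57.6 and 45.3 CPM in the 3 controls, in replicate order, against 122, 119 and 119 CPM under shLIS1. Every shLIS1 value was above every control value, and control library 1 was the lowest control, as in each of the 7 largest rises. The level reached 257% of control (log2 fold change 1.35, SE 0.14, edgeR adjusted p = 2.8e-04), and the offset fit gave 0.86 (adjusted p = 4.8e-08). Without control library 1 the log2 fold change was 1.22. KIF20A (ENSG00000112984, chr5:138178719-138187723, plus strand), which brings the chromosomal passenger complex to the central spindle, went the other way. The level of KIF20A was 152, 166 and 165 CPM in the controls and 125, 124 and 122 CPM in the shLIS1 libraries. The 3 shLIS1 values lay close together and all below the controls (log2 fold change -0.38, SE 0.05, edgeR adjusted p = 3.7e-06), with -0.41 (adjusted p = 1.5e-07) in the offset fit. KIF23 carries the motor activity of centralspindlin, the complex that bundles microtubules between the separating chromosomes. In library order, KIF23 was measured at 108, 118 and 116 CPM in control and at 148, 137 and 127 CPM in shLIS1. Its groups did not overlap and it rose (log2 fold change 0.27, SE 0.06, edgeR adjusted p = 8.4e-04), but the offset fit gave 0.07 (adjusted p = 0.322).

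KIF14, a midbody kinesin-3 that binds citron kinase, rose to 195% of control. KIF14 measured 33.9, 45.1 and 36.0 CPM in the 3 controls, in replicate order, against 80.3, 75.2 and 69.3 CPM under shLIS1. No library of the groups overlapped (log2 fold change 0.96, SE 0.09, edgeR adjusted p = 5.7e-07), and the offset fit gave 0.53 (adjusted p = 3.5e-06). KIF18A walks to the plus ends of kinetochore microtubules and dampens chromosome movements. The level of KIF18A was 37.7, 49.9 and 47.4 CPM in the controls and 81.8, 84.6 and 79.6 CPM in the shLIS1 libraries. This was a rise to 182% of control (log2 fold change 0.86, SE 0.08, edgeR adjusted p = 1.6e-07; 0.56 with adjusted p = 3.5e-07 in the offset fit). Its paralog KIF18B, which works on astral microtubules, did not pass. In library order, KIF18B was measured at 63.5, 53.6 and 59.8 CPM in control and at 53.7, 55.1 and 53.8 CPM in shLIS1. These groups overlapped (log2 fold change -0.12, SE 0.07, edgeR adjusted p = 0.158), and the difference between KIF18A and KIF18B was not tested. Without control library 2, its lowest control, the log2 fold change of KIF18B was -0.18 and passed (adjusted p = 0.0382).

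KIF11, the tetrameric motor that pushes spindle poles apart, and KIF15, which can take over part of that work, both rose. KIF11 measured 86.3, 111 and 101 CPM in the 3 controls, in replicate order, against 141, 135 and 129.7 CPM under shLIS1. The level of KIF15 was 13.2, 17.2 and 13.8 CPM in the controls and 25, 23.8 and 23.6 CPM in the shLIS1 libraries. In each gene the lowest shLIS1 library was above the highest control. KIF15 kept its call in every alternative (log2 fold change 0.70, SE 0.10, edgeR adjusted p = 4.7e-06; 0.42 with adjusted p = 3.6e-04 in the offset fit). KIF11 (log2 fold change 0.45, SE 0.07, edgeR adjusted p = 9.6e-05) lost it in the offset fit, at 0.09 (adjusted p = 0.182).

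KIFC1, KIF22 and KIF2C fell. KIFC1 is a minus-end motor that pulls spindle poles together, the opposite pull to KIF11. KIFC1 measured 132, 126 and 132 CPM in the 3 controls, in replicate order, against 103, 99.4 and 93.9 CPM under shLIS1. KIF22 pushes chromosome arms away from the poles. The level of KIF22 was 117, 113 and 121 CPM in the controls and 83.2, 82.3 and 86.9 CPM in the shLIS1 libraries. KIF2C removes tubulin from microtubule ends at centromeres and corrects wrong attachments. In library order, KIF2C was measured at 169.9, 176 and 182 CPM in control and at 136, 124 and 124 CPM in shLIS1. Every shLIS1 value of these 3 genes was below every control value. Genes on the other strand overlap 12.7% of the exonic bases of KIFC1 and 13% of those of KIF22, and whether reads were counted by strand is unstated. KIFC1 had a log2 fold change -0.39, SE 0.05, edgeR adjusted p = 4.8e-06. KIF22 had a log2 fold change -0.48, SE 0.05, edgeR adjusted p = 3.3e-07. KIF2C had a log2 fold change -0.46, SE 0.05, edgeR adjusted p = 6.4e-07. In the offset fit all 3 stayed lower, at -0.19 (adjusted p = 0.00236), -0.24 (adjusted p = 2.2e-04) and -0.44 (adjusted p = 1.4e-07).

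KIF2A, the spindle pole relative of KIF2C that also trims neurites, rose. KIF2A measured 35.6, 42.7 and 40.6 CPM in the 3 controls, in replicate order, against 54.0, 53.7 and 55.7 CPM under shLIS1. Its groups were apart (log2 fold change 0.46, SE 0.07, edgeR adjusted p = 3.0e-05; 0.26 with adjusted p = 0.00197 in the offset fit). KIF4A, which binds chromosomes and shortens the central spindle overlap, did not pass. The level of KIF4A was 95.4, 103 and 102 CPM in the controls and 99.8, 96.7 and 84.6 CPM in the shLIS1 libraries. The groups overlapped (log2 fold change -0.10, SE 0.06, edgeR adjusted p = 0.198), but KIF4A was called lower in the offset fit, at -0.22 (adjusted p = 0.00351), and without control library 1, at -0.14 (adjusted p = 0.0498). KIF4B, an intronless copy of KIF4A, had 1 to 13 reads per library and was not tested. The 24 bases that encode the ATP-binding loop are identical in KIF4A and KIF4B, and how the counting treated reads that match both is not given, so both values are uncertain.

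**Figure D2:**
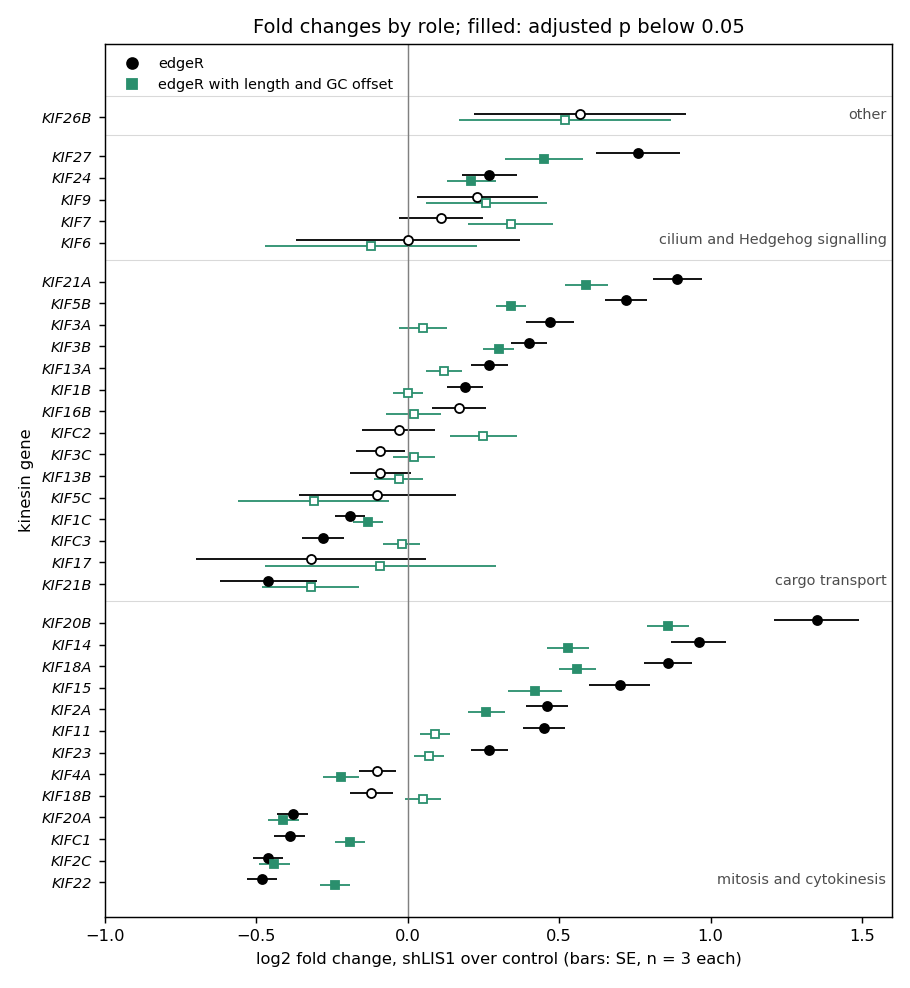
Log2 fold change of shLIS1 over control with its SE (3 libraries each) for the 34 tested kinesins, grouped by role, from edgeR without (circles) and with (squares) the offset over transcript length and GC content. Filled symbols have an adjusted p below 0.05: KIF20B lies at 1.35 and 0.86, KIF2C at -0.46 and -0.44, and KIF11 and KIF3A are filled only without the offset.

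Many mitotic genes are switched on together through promoters that hold a CCAAT box, bound by NF-Y, and a cell cycle homology region (CHR), bound by the DREAM and MuvB complexes. RefSeq promoters on build GRCh38.p14, from 250 bases before to 50 bases from the gene start, were matched for 33 of the 41 kinesins and searched on both strands for the CHR core TTTGAA and for the CCAAT box. Of 14 mitotic kinesin promoters 10 held TTTGAA (71.4%), against 1 of 12 cargo transport kinesins (8.33%), KIF5B, and 15.4% of all 27305 promoters. CCAAT was in 11 of these 14 (78.6%) and in 35.7% of all promoters, and both motifs were in 9 of 14 (64.3%) against 6.08%. The 14 include KIF4B, the intronless copy of KIF4A. Its window repeats, with few changes, the stretch of the KIF4A window that holds both motifs, so the matches of these genes are not independent. Matches do not show binding. Only these exact letters were searched, so a CHR of other letters would be missed. The promoters of KIF20B, KIFC1 and KIF20A are printed 5′ to 3′ on the gene's strand because a gene that rose and a gene that fell share both motifs, while the other kinesin that fell has the box but not the core in this window. Capitals mark both motifs and their reverse complements, and no match of one motif overlapped the other.
KIF20B: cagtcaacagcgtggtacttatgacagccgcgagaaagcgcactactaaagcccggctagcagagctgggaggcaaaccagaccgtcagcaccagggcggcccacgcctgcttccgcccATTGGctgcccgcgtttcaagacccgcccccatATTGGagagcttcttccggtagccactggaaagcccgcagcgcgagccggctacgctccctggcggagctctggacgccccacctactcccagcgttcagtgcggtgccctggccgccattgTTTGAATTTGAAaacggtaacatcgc
KIFC1: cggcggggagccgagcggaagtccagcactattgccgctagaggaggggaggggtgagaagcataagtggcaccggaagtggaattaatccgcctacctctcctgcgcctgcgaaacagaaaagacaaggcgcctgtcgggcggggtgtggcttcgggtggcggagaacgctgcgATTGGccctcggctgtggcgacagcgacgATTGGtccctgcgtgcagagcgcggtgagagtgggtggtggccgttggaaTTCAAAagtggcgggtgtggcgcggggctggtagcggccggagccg
KIF20A: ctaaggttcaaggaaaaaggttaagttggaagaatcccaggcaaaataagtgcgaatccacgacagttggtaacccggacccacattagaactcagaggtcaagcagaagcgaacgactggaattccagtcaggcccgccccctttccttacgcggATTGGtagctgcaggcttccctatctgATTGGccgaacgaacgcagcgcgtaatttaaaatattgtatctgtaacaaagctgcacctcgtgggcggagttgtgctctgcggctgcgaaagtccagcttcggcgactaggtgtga
These windows are chr10:89701340-89701639 for KIF20B, chr6:33391573-33391872 for KIFC1 and chr5:138178862-138179161 for KIF20A, all on the plus strand. They start from the RefSeq gene starts. The files place the start of KIF20A further upstream, and other starts also differ. KIF5C starts at 148875227 in the files, but its window is chr2:148947625-148947924. KIF11 starts at 92574105 in the files, but its window is chr10:92592880-92593179. Both windows thus lie inside the genes as listed, and which starts these cells use was not tested. KIF20B has its CHR cores at 24 and 30 bases after the start, and KIFC1 has its core at 4 bases after the start. Of the 7 mitotic kinesins that rose, KIF11, KIF14, KIF18A, KIF20B and KIF23 have both motifs, KIF15 has the CHR core alone and KIF2A has neither. Of the 4 that fell, KIFC1 has both, KIF20A and KIF22 have the CCAAT box alone and KIF2C has neither. A promoter without TTTGAA is thus not shown to lack a CHR.

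Of 25 tested genes that work with or regulate the mitotic kinesins, 5 were higher (20.0%), 10 lower (40.0%) and 10 not past, beside 23.5% higher and 24.9% lower among all genes. Their median log2 fold change was -0.09, beside -0.01 for all genes. In the offset fit 2 were higher (8.0%) and 13 lower (52.0%), beside 17.7% and 24.0%. CENPE, the kinesin-7 of the kinetochore whose symbol the rule does not match, rose (log2 fold change 1.42, adjusted p = 5.4e-09; 0.89 in the offset fit). ASPM, which focuses spindle poles (1.31, adjusted p = 2.7e-07), and the cytokinesis exchange factor ECT2 (0.39, adjusted p = 2.3e-05) were the next most significant rises, and ECT2 was not called with the offset (0.05). PSRC1 (-0.69, adjusted p = 1.4e-07), the mitotic kinase PLK1 (-0.57, adjusted p = 6.0e-07) and the passenger kinase AURKB (-0.46, adjusted p = 1.5e-06) were the most significant falls. All of these are edgeR values. PRC1, the microtubule crosslinker that recruits KIF4A, and NUSAP1 were listed at only 1.29 and 0.239 CPM in control. PRC1 lies across the antisense gene PRC1-AS1, and the counting rules are not given, so these low levels are uncertain.

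Of 15 proliferation markers 10 were lower (66.7%), 3 higher (20.0%) and 2 not past, beside 24.9% lower and 23.5% higher among all genes. The median log2 fold change of the markers was -0.24 (-0.18 in the offset fit), beside -0.01 (-0.03) for all genes. UBE2C (-0.42), CDC20 (-0.45) and CCNB2 (-0.39) fell, and TOP2A (0.36), MCM6 (0.16) and MKI67 (0.38) rose. In the offset fit 9 markers were lower (60.0%, beside 24.0% of all genes). MKI67 (0.21) was the 1 marker called higher there (6.67%, beside 17.7% of all genes). The summed level of the 15 markers was 4209 to 4384 CPM in control and 3944 to 4259 CPM in shLIS1. The part of a shift in the cycling population in the kinesin changes was not tested.

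The 17 cargo transport kinesins, a group that here also holds the microtubule growth inhibitors KIF21A and KIF21B, gave 15 tested genes. Of these 15, 6 were higher (40.0%), 3 lower (20.0%) and 6 not past, beside 23.5% and 24.9% of all genes. The rises were KIF21A, KIF5B, KIF3A, KIF3B, KIF13A and KIF1B, and the falls KIF21B, KIFC3 and KIF1C. Their summed level was 659 to 679 CPM in control and 762 to 791 CPM in shLIS1. With the offset 3 stayed higher (20.0%), KIF21A, KIF5B and KIF3B, and 1 lower (6.67%), KIF1C, beside 17.7% and 24.0% of all genes.

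Kinesin-1 carries mitochondria, lysosomes and vesicles and also delivers dynein to plus ends. KIF5B (ENSG00000170759, chr10:32009015-32056425, minus strand) is its ubiquitous heavy chain and made up nearly all kinesin-1 counts here. KIF5B measured 91.1, 115 and 96.6 CPM in the 3 controls, in replicate order, against 167, 168 and 163 CPM under shLIS1. The groups were well apart, with control library 1 lowest (log2 fold change 0.72, SE 0.07, edgeR adjusted p = 2.2e-07), and the offset fit gave 0.34 (adjusted p = 6.9e-06). KIF5C, a heavy chain best known from neurons, was at 1.54 to 2.34 CPM in control and 1.44 to 2.43 CPM in shLIS1 (log2 fold change -0.10, SE 0.26, edgeR adjusted p = 0.788). The neuronal KIF5A had 0 to 5 reads per library and was not tested.

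The light chains, which link kinesin-1 to cargo, were not called higher. KLC4 (-0.83, adjusted p = 1.2e-06), KLC2 (-0.40, adjusted p = 5.0e-06) and KLC3 (-0.48, adjusted p = 0.00137) fell, and KLC1 was at 0.07 (adjusted p = 0.546), all by edgeR. With the offset KLC4 (-0.61) and KLC2 (-0.18) stayed lower. Of 22 tested light chains and adaptors 5 were higher (22.7%), 9 lower (40.9%) and 8 not past, beside 23.5% and 24.9% of all genes. The median log2 fold change of the 22 was -0.07, beside -0.01 for all genes. The most significant rises were KIDINS220, a membrane scaffold that binds kinesin-1 (0.72, adjusted p = 7.9e-09), KTN1, the endoplasmic reticulum kinesin receptor kinectin (1.14, adjusted p = 9.0e-07), and TRAK1 (0.36, adjusted p = 6.6e-04), which ties kinesin-1 to mitochondria. PLEKHM2, which links kinesin-1 to lysosomes, was the next most significant fall after KLC4 and KLC2 (-0.36, adjusted p = 1.3e-05). In the offset fit 6 of the 22 were higher (27.3%) and 7 lower (31.8%), beside 17.7% and 24.0% of all genes. KLC1, KLC3 and the partners of KIF3A, KIF23 and KIF20A that follow were picked after their values were seen.

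KIF3A and KIF3B pair in the heterotrimeric kinesin-2 that builds cilia and also carries vesicles. The level of KIF3A was 20.3, 21.6 and 19.2 CPM in the controls and 25.9, 29.9 and 29.3 CPM in the shLIS1 libraries. In library order, KIF3B was measured at 62.8, 58.9 and 55.4 CPM in control and at 79.5, 76.0 and 78.2 CPM in shLIS1. Both rose without overlap (log2 fold change 0.47, SE 0.08, edgeR adjusted p = 8.9e-05 for KIF3A and log2 fold change 0.40, SE 0.06, edgeR adjusted p = 1.9e-05 for KIF3B). Only KIF3B was called in the offset fit, at 0.30 (adjusted p = 9.0e-05), where KIF3A was at 0.05 (adjusted p = 0.649). KIFAP3, which completes the trimer, was at -0.22 (adjusted p = 0.108) and was called lower with the offset (-0.55, adjusted p = 3.3e-04). KIF3C (log2 fold change -0.09, SE 0.08, edgeR adjusted p = 0.419) and KIF17 (log2 fold change -0.32, SE 0.38, edgeR adjusted p = 0.525) did not pass.

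Around the kinesin-6 motors the partners differed in direction in the fit without the offset. RACGAP1, the other subunit of centralspindlin, fell (-0.24, edgeR adjusted p = 0.00151) while KIF23 and ECT2 rose. In the offset fit RACGAP1 was at -0.37 (edgeR adjusted p = 1.9e-06), and KIF23 (0.07) and ECT2 (0.05) were not called. Beside KIF20A, the passenger subunits AURKB (-0.46), BIRC5 (-0.39) and CDCA8 (-0.46) also fell, and INCENP was at -0.12 (edgeR adjusted p = 0.112). With the offset AURKB (-0.24), BIRC5 (-0.32) and CDCA8 (-0.39) stayed lower, and INCENP was at 0.07 (edgeR adjusted p = 0.298).

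**Figure D3:**
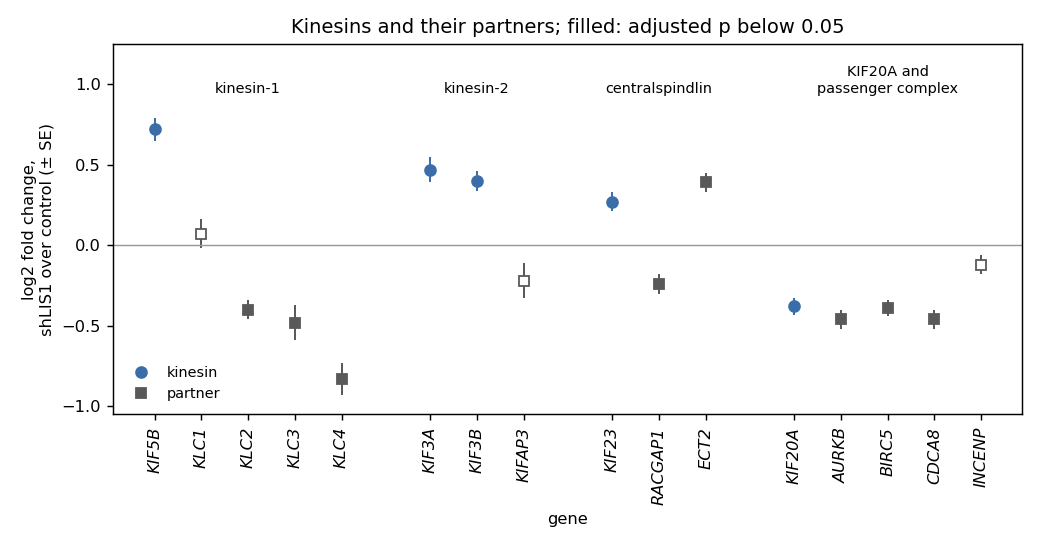
Log2 fold change of shLIS1 over control with its SE (edgeR, 3 libraries each) for kinesins (circles) and their partner subunits (squares), filled where the adjusted p is below 0.05. In this fit, without the offset, KIF5B lies at 0.72 and its light chains between -0.83 and 0.07, and KIF20A lies with the passenger subunits below 0.

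Of the kinesin-3 carriers of vesicles, KIF1B and KIF13A were called higher and KIF1C lower, and with the offset KIF1C alone was called. KIF1B measured 88.5, 81.4 and 77.8 CPM in the 3 controls, in replicate order, against 93.4, 100.2 and 87.9 CPM under shLIS1. The level of KIF1C was 159, 143 and 153 CPM in the controls and 138, 131 and 129.9 CPM in the shLIS1 libraries. KIF1B moves synaptic vesicle precursors and mitochondria, and KIF1C carries integrins and dense-core vesicles. The KIF1B groups overlapped and its small rise (log2 fold change 0.19, SE 0.06, edgeR adjusted p = 0.019) was not called in the offset fit (0.00), with upper quartile scaling (0.15, adjusted p = 0.056), or without control library 3 (0.15, adjusted p = 0.112) or shLIS1 library 2 (0.14, adjusted p = 0.146). The KIF1C groups did not overlap (log2 fold change -0.19, SE 0.05, edgeR adjusted p = 0.00585; -0.13 with adjusted p = 0.0309 in the offset fit). KIF13A, which carries recycling endosomes, had the closest control replicates of these genes. In library order, KIF13A was measured at 53.2, 53.6 and 52.0 CPM in control and at 62.8, 64.8 and 64.6 CPM in shLIS1. Its rise (log2 fold change 0.27, SE 0.06, edgeR adjusted p = 8.4e-04) was at 0.12 (adjusted p = 0.083) in the offset fit. KIF13B is its closest relative. The level of KIF13B was 33.2, 26.7 and 23.6 CPM in the controls and 26.8, 26.1 and 25.4 CPM in the shLIS1 libraries. Control library 1 was above all others and the groups overlapped (log2 fold change -0.09, SE 0.10, edgeR adjusted p = 0.507). Without that library its log2 fold change was 0.05. KIF16B, an early endosome motor, was higher in all 3 shLIS1 libraries, at 15.7 to 17.7 against 13.9 to 15.6 CPM, without passing (log2 fold change 0.17, SE 0.09, edgeR adjusted p = 0.144). KIF1A, the neuronal member, had reads only in control library 3 (3 reads) and shLIS1 library 1 (1 read).

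KIF21A and KIF21B parted. Both slow microtubule growth, KIF21A at the cell cortex. KIF21A measured 30.6, 39.1 and 35.4 CPM in the 3 controls, in replicate order, against 68.1, 66.5 and 61.1 CPM under shLIS1. The level of KIF21B was 5.0, 4.97 and 4.66 CPM in the controls and 3.90, 3.22 and 3.47 CPM in the shLIS1 libraries. KIF21A rose to 186% of control (log2 fold change 0.89, SE 0.08, edgeR adjusted p = 2.6e-08; 0.59 with adjusted p = 5.0e-07 in the offset fit). KIF21B was at 72.4% of control (log2 fold change -0.46, SE 0.16, edgeR adjusted p = 0.0202), from a level near 5 CPM. That call was lost with DESeq2 (adjusted p = 0.0659), in the offset fit (-0.32, adjusted p = 0.111), and without control library 2 (-0.44, adjusted p = 0.0529), shLIS1 library 2 (-0.40, adjusted p = 0.0784) or shLIS1 library 3 (-0.44, adjusted p = 0.0615).

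KIFC3 is a minus-end motor of epithelial junctions and the Golgi. KIFC3 measured 71.6, 72.5 and 83.5 CPM in the 3 controls, in replicate order, against 66.6, 61.2 and 60.4 CPM under shLIS1. Its groups did not overlap (log2 fold change -0.28, SE 0.07, edgeR adjusted p = 0.00218), and the offset fit gave -0.02 (adjusted p = 0.845). KIFC2, with 17.8% of its exonic bases under a gene on the other strand, did not pass (log2 fold change -0.03, SE 0.12, edgeR adjusted p = 0.841).

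Cilium and Hedgehog kinesins were measured at low levels in these cells, at a summed 31.6 to 34.0 CPM in control and 39.5 to 41.9 CPM in shLIS1 over 6 genes. Of 5 tested, 2 were higher (40.0%, beside 23.5% of all genes) and 3 did not pass. KIF27 is the closest relative of KIF7. KIF27 measured 4.75, 6.21 and 6.28 CPM in the 3 controls, in replicate order, against 9.75, 8.71 and 10.8 CPM under shLIS1. It rose without overlap (log2 fold change 0.76, SE 0.14, edgeR adjusted p = 1.0e-04; 0.45 with adjusted p = 0.00746 in the offset fit). KIF24 removes tubulin at the mother centriole and holds back cilium growth. The level of KIF24 was 17.3, 16.9 and 15.6 CPM in the controls and 21.0, 19.2 and 19.9 CPM in the shLIS1 libraries. It rose (log2 fold change 0.27, SE 0.09, edgeR adjusted p = 0.0125), with 0.21 (adjusted p = 0.0398) in the offset fit, but the call was lost without control library 3 (0.23, adjusted p = 0.0693) or shLIS1 library 1 (0.24, adjusted p = 0.0555). KIF7, which regulates GLI factors at the cilium tip, was at 5.40 to 7.21 against 6.73 to 7.35 CPM (log2 fold change 0.11, SE 0.14, edgeR adjusted p = 0.525). KIF9 and KIF6, of motile cilia, did not pass (log2 fold change 0.23 and 0.00), and KIF19 had 0 to 3 reads per library. KIF7, KIF9 and KIF27 share 11.8%, 17.9% and 13.1% of their exonic bases with genes on the other strand, so their counts depend on a strand setting that is not given.

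KIF26A, KIF12 and KIF25 were not tested. KIF26A, an atypical kinesin, had 2, 2 and 1 reads in the controls and 8, 4 and 12 in shLIS1 (adjusted p = 0.0477 in the edgeR fit with no filter on low counts), and KIF12 had 0 to 4 and 3 to 7. KIF25 had 0 to 2 reads per library. KIF26B passed the filter at 0.54 to 0.895 against 0.867 to 1.30 CPM (log2 fold change 0.57, SE 0.35, edgeR adjusted p = 0.191).

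Levels can be compared between genes only per transcript length. Per kilobase of the longest transcript, KIF2C was the highest in control (59.6 CPM per kb, range 57.5 to 61.7), followed by KIF20A (50.3), KIFC1 (47.9) and KIF22 (46.8). The ranges of KIF20A and KIFC1, and of KIFC1 and KIF22, overlapped, while KIF2C stood above them and KIF23, at 30.6 CPM per kb, below. These 4 highest were the 4 mitotic kinesins that fell. They also have the shortest reference transcripts of the mitotic kinesins, from 2505 bases in KIF22 to 3201 in KIF20A. Their control means before division by length, from 117 CPM in KIF22 to 176 CPM in KIF2C, were also the highest of the mitotic kinesins. Whether level or length goes with the falls was not tested. KIF5B was at place 10 with 17.2 CPM per kb in control and at place 6 with 28.2 CPM per kb in shLIS1. KIF20B went from 7.28 to 18.7 CPM per kb, from place 17 to place 10. In shLIS1 KIF2C was still the highest, at 43.3 CPM per kb, and KIF23 (36.8) lay within the range of KIFC1 (34.7 to 38.2).

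**Figure D4:**
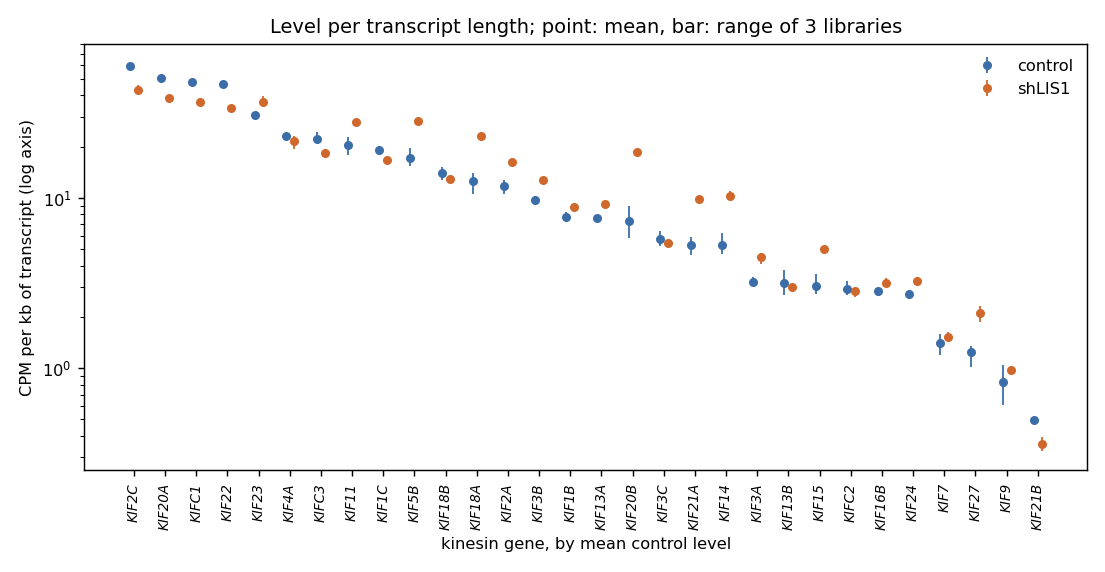
Level per kilobase of transcript (CPM per kb, log axis) of the 30 kinesins highest in control, as the mean (point) and range (bar) of 3 libraries in each group. KIF2C, KIF20A, KIFC1 and KIF22 lead in control between 46.8 and 59.6 CPM per kb and are all lower in shLIS1, while KIF20B, KIF21A, KIF14 and KIF18A lie higher.

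The direction of change followed transcript composition within the family. All 7 kinesins in the GC-poorest quintile of all genes, KIF11, KIF14, KIF18A, KIF20B, KIF27, KIF3A and KIF5B, were higher, with a median log2 fold change of 0.76 beside 0.28 for all genes of that quintile. Of 7 in the GC-richest quintile, 0 were higher and 3 lower, with a median of -0.28, the same as for all genes there. Over all tested genes of any GC content, 23.5% were called higher and 24.9% lower. The shares of all genes called within each quintile were not counted, so the kinesin counts cannot be set against them. Across the 34 tested kinesins Spearman's rho between fold change and transcript GC content was -0.772. Across the 13 mitotic ones it was -0.94, and across the 15 of cargo transport -0.736. The same for all 14491 genes with a reference transcript was -0.501. In the offset fit the values were -0.484 for the 34, -0.857 for the 13 and -0.386 for the 15. With transcript length rho was 0.334 for the 34, 0.802 for the 13 and 0.292 for all genes. The 15 cargo transport kinesins showed no such trend with length, at -0.00714. With length in the offset fit, rho was 0.161 for the 34, 0.681 for the 13 and -0.354 for the 15. The points share their libraries and the family its descent, so these are descriptions without a p.

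**Figure D5:**
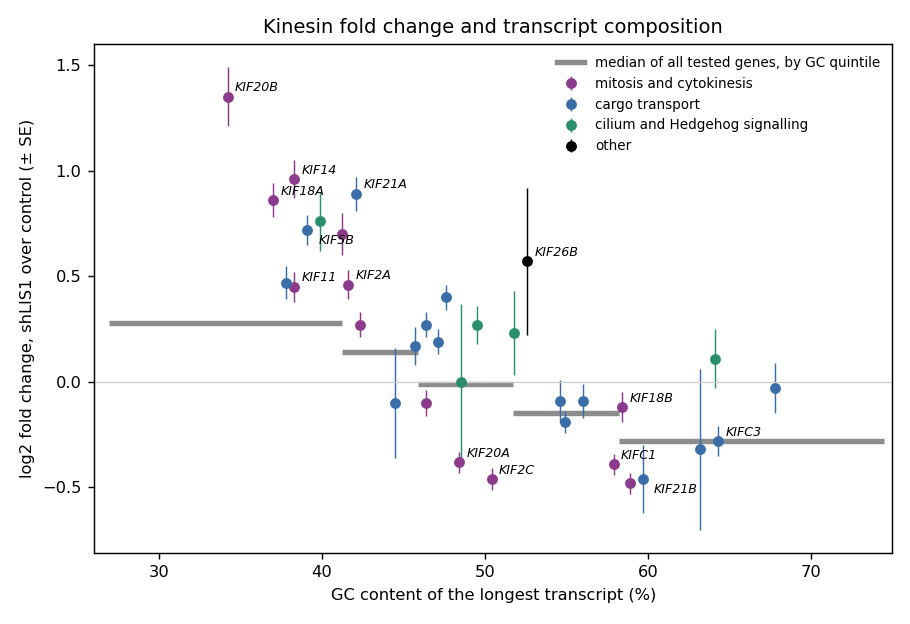
Log2 fold change of shLIS1 over control with its SE against the GC content of the longest transcript for the 34 tested kinesins, coloured by role, with the median of all tested genes in each GC quintile as grey bars. The 7 kinesins of the lowest quintile lie above its grey bar, with KIF20B at 34.2% GC the highest, and KIF2C, KIF20A, KIFC1 and KIF22 lie below theirs.

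Closely related kinesins were also compared in pairs. In 7 of 8 pairs of related genes with both members tested, the member with less GC had the higher log2 fold change, and 6 of 8 did so in the offset fit. The exceptions were KIFC1 and KIFC3 in both fits and KIF3A and KIF3B in the offset fit. Over all genes fold change also fell with GC content (Spearman's rho -0.501), and how often pairs of other genes do the same was not tested. The 24 bases that encode the ATP-binding P-loop of the motor domain are printed for 4 of the pairs, picked after their values were seen, to show how far the codons differ where 7 or 8 of the 8 residues are the same. The third base of each codon is in capitals. The bases are from GENCODE release 29 transcripts on GRCh38, 5′ to 3′ on the coding strand.
KIF21A: ggAcaAacTggAgcTggTaaAacA
KIF21B: ggGcaGacGggGgcCggGaaGacG
KIF1B: ggGcaGacTggTgcTggAaaAtcT
KIF1C: ggGcaGacCggGgcTggGaaAtcC
KIF2A: ggGcaGacTggAagTggAaaAacT
KIF2C: ggCcaGacAggAagTggCaaGacA
KIF20B: ggGctAacCaaTtcAggAaaAacA
KIF20A: ggAgtCacTaaCtcAggGaaAacC
The positions are chr12:39369894-39370044, minus strand, for KIF21A and chr1:201008934-201009271, minus strand, for KIF21B, each across an intron. They are chr1:10258598-10258621, plus strand, for KIF1B, chr17:5001327-5001350, plus strand, for KIF1C, chr5:62361306-62361329, plus strand, for KIF2A and chr1:44757620-44757643, plus strand, for KIF2C. KIF20B lies at chr10:89710029-89710052, plus strand, and KIF20A at chr5:138182425-138182448, plus strand.

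All 8 encoded residues are identical between KIF21A and KIF21B, yet 0 of the 8 capitals are G or C in KIF21A, which rose, and 8 of 8 in KIF21B. The KIF1B and KIF1C loops also encode the same residues, with 2 and 6 such capitals, as do those of KIF2A and KIF2C, with 2 and 4. KIF20B and KIF20A share 7 of 8 residues and have 2 and 4. Among the pairs not printed, KIF18A and KIF18B have 4 and 6, KIF3A and KIF3B do not differ, with 2 and 2, and KIFC1 and KIFC3 have 6 and 8, where KIFC1 had the lower log2 fold change. Over the whole coding sequence, the third base of the codon was G or C in 36.5% of codons in KIF21A and 79.2% in KIF21B, 52.2% in KIF1B and 70.1% in KIF1C, 26.8% in KIF2A and 58.3% in KIF2C, and 28.8% in KIF20B and 54.8% in KIF20A. Spearman's rho between fold change and this share was -0.729 over the 34 tested kinesins and -0.451 in the offset fit. The share of mitochondrial reads was 5.46% to 6.15% in control and 7.45% to 7.68% in shLIS1. The part of base composition beyond the offset, and of whatever moved the mitochondrial share, in the kinesin changes was not tested.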

How the data were processed

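The submitters deposited raw read counts per gene for 26524 genes in 6 libraries of poly(A) RNA, made with dUTP strand marking per the labels' protocols. The build is hg 38 per the submitters' processing notes. The aligner, counter and strand setting are unstated, and 0 count columns were left unmapped.

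The deposited counts were analysed in R 4.3.3 with edgeR 4.0.16: filterByExpr (minimum count 10, minimum total 15), TMM scaling, and the robust quasi-likelihood test of group, adjusted by Benjamini-Hochberg over 14964 genes at 0.05. The SE is |log2 fold change| divided by the root of F. CPM use TMM library sizes. The offset fit smoothed how far each library lay from the average of all, gene by gene, over log2 length and GC content of the longest GENCODE 29 transcript (mgcv 1.9.3, basis 6 per axis), for 14491 genes. Alternatives were RLE and upper quartile scaling, other filters, DESeq2 1.42.0, limma-voom 3.58.1, a fit without robust estimation, a replicate block, and leaving out each library. The fit was tested on simulated data. Of 24379 matched gene IDs, 99.8% overlapped their GENCODE 29 position and 45.8% had the same start and end, so lengths and GC content may differ from the gene models that were counted. Replicates differed by a chi-square per gene of 2.64 to 10.9, against 40.3 to 54.1 across groups. The largest values between replicates, 10.9 and 8.68, were those of control library 1 against control libraries 2 and 3. Control libraries 2 and 3 differed by 3.48.

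The members, lists and offset were chosen with earlier results of these data known. Values per library are given by rule for the 8 largest rises, the falls past the threshold (at most 8), both genes of 9 preset pairs where both passed the filter, KIF5B and KIF11. From each partner list the rule names up to 3 rises and 3 falls with the smallest p. Values of KIF23, KIF24, KIF4A and untested genes were added after seeing the data.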

Additional observations from a re-analysis of the deposited data

How the results depend on the processing

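Of the 22 kinesins called, 13 kept their direction and their call under every alternative run. Over all alternatives 10 to 16 kinesins were higher and 5 to 8 lower, the 16 including KIF26A, tested only with no filter on low counts. The offset over length and GC content was the alternative that ended most calls: KIF11, KIF13A, KIF1B, KIF21B, KIF23, KIF3A and KIFC3 lost theirs, and with a replicate block added KIF1C (adjusted p = 0.0773) and KIF24 (adjusted p = 0.0612) did too. With both, KIF7 was called higher (0.36, edgeR adjusted p = 0.042) and KIF4A lower (-0.22). The minimum of 1 CPM in 3 libraries left out 3 of the 34 kinesins. No shared pattern was seen between same-numbered libraries (correlations of deviations were -0.0381, 0.0315 and -0.0373). With 3 libraries per group this cannot tell whether same-numbered libraries were prepared together. With the replicate block alone, 15 kinesins were higher and 7 lower, PAFAH1B1 was at -0.52, and no kinesin lost or gained its call. Directions that turned belong to kinesins that were not called. KIF18B was at 0.05, KIF3C at 0.02 and KIFC2 at 0.25 with the offset, each the same with the block added. KIF6 was at -0.04 with upper quartile scaling, -0.05 with limma-voom, -0.02 with the block, -0.12 with the offset and -0.13 with both. With 1 library left out at a time, KIF13B ranged from -0.19 to 0.05, KIF5C from -0.32 to 0.08, KIF6 from -0.15 to 0.21 and KIFC2 from -0.07 to 0.05. Among the lists, 5 light chains and adaptors were lower with block and offset, against 9 without either. Mitotic partners called higher went from 5 to 2 and proliferation markers called higher from 3 to 1 with the offset, with or without the block. With 1 library left out, proliferation markers called higher ranged from 1, without shLIS1 library 1, to 3. Fitted changes of genes under about 1 CPM, such as KIF6, KIF17 and KIF26B, are limited by depth.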
